A study of Rattus norvegicus with 9 samples.

Results

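Among the 41078 transcripts counted in PC12 cells, 5 very abundant ones were followed as a set: ENSRNOT00000050156, ENSRNOT00000047550, ENSRNOT00000043693, ENSRNOT00000046108 and ENSRNOT00000049683. They were chosen by their mean level, which puts them among the most abundant of all, and listed by ID as candidate transcripts of the mitochondrial genome that encode respiratory chain subunits. The deposited table gives transcript IDs without gene names. The RefSeq gene table of the GRCr8 assembly used here does not pair such IDs with genes and has 0 rows for the mitochondrial chromosome. It therefore could not name any of the 41078 IDs, these 5 included. The mitochondrial label was therefore not checked, and the transcripts are described by ID. As background on the proposed class, mitochondrial DNA encodes core subunits of the respiratory chain complexes and of the ATP synthase. Its genes are transcribed as long precursor RNAs that are cut into single messages, most of which receive poly(A) tails inside the mitochondrion, and the level of each message then depends on its own stability as well as on transcription.

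PC12 is a wild-type rat line derived from a pheochromocytoma that serves as a model of neuron-like cells. The series holds 3 untreated control libraries, 3 from cells given erastin, which blocks cystine import and starts ferroptosis, and 3 from cells given erastin and PQR NPs together (called co-treated here). All groups were of the same line and genotype. No group was given PQR NPs without erastin, so effects of the particles alone were not measured. The labels do not state doses, times or the composition of the particles. Nothing says that replicates were separate cultures, and if they were not, the p-values reflect technical spread between samples alone. Totals ran from 34772755 to 40826754 counts per library, and the smallest count of any of the 5 was 92941, so counting error was small beside the spread between replicates. Markers of PC12 cells could not be looked up without gene names. In bulk RNA, fewer cells with a transcript and less of it per cell cannot be told apart.

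By the mean level over the 9 libraries, in counts per 1000000 of the library total (CPM), the 5 transcripts ranked 1, 3, 8, 11 and 12. These ranks describe counts and not molecules, since transcript lengths are not used here. In controls 3.64% ± 0.390 of all counts fell on them, in erastin libraries 3.06% ± 0.471 and in co-treated libraries 2.85% ± 0.239 (SD, n = 3 each). The summed share ran from 3.37% to 4.09% in controls, from 2.56% to 3.50% with erastin and from 2.59% to 3.07% under co-treatment. The co-treated libraries therefore all lay below the controls, while the erastin libraries overlapped both.

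The summed share covered changes of different kinds. ENSRNOT00000050156 was above every control library in all erastin libraries. By description, with that transcript set aside after its values were seen, the other 4 summed to 2.47% ± 0.334 of the control counts, 1.59% ± 0.297 of the erastin counts and 1.50% ± 0.108 of the co-treated counts (SD, n = 3 each).

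**Figure D1:**
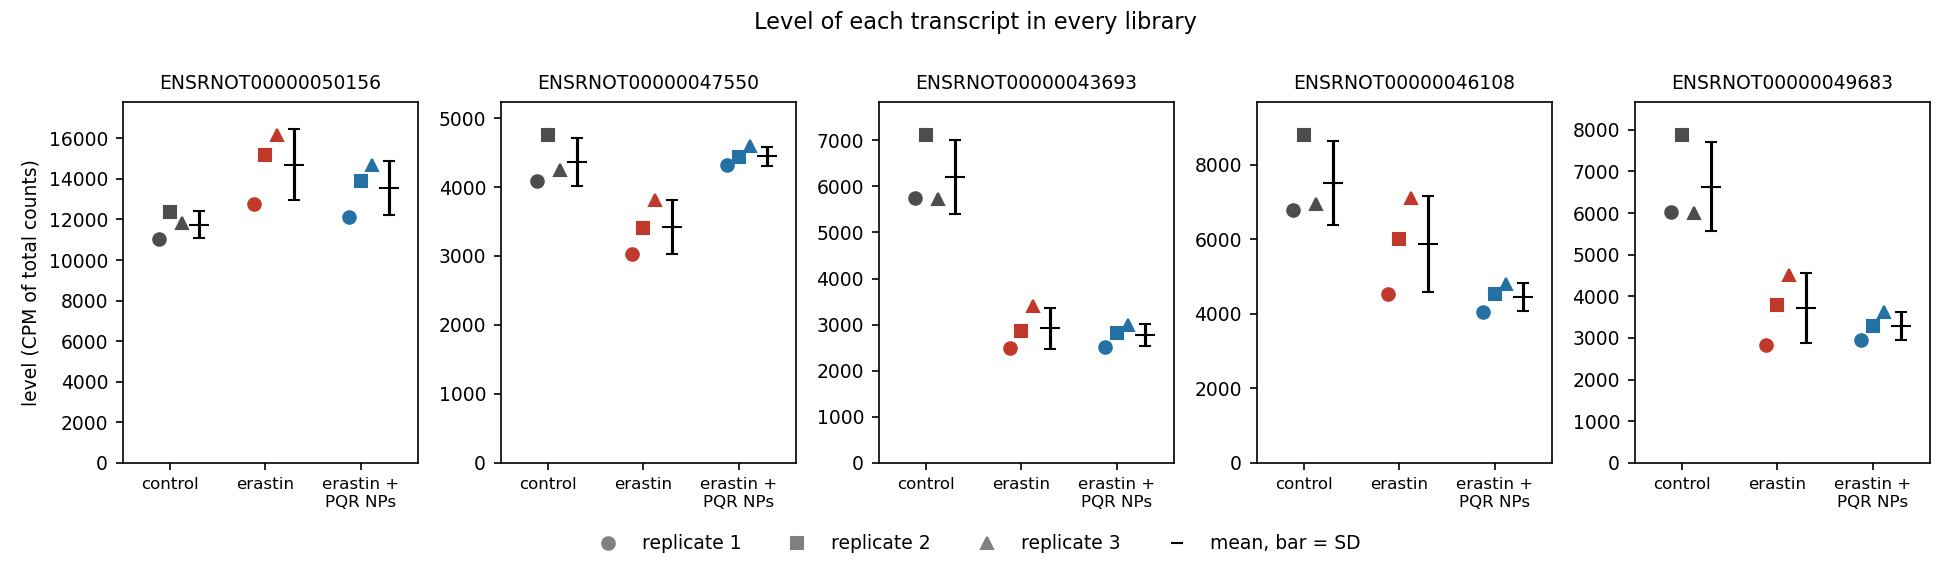
Level of each of the 5 transcripts, in CPM of total counts on a linear axis from 0, in 3 control, 3 erastin and 3 co-treated libraries; the symbol gives the replicate number and the bar beside the points the mean ± SD. ENSRNOT00000043693 and ENSRNOT00000049683 sit below all controls in both treatments, ENSRNOT00000046108 only under co-treatment, ENSRNOT00000047550 only with erastin, and ENSRNOT00000050156 in neither.

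Differences between groups were tested with edgeR's quasi-likelihood test on all 17123 transcripts that passed its filter on low counts, a filter that all 5 passed, with trimmed mean (TMM) scaling and Benjamini-Hochberg adjustment at 0.05. Fold changes below are from that test unless limma-voom is named, and intervals are the 95% intervals of limma-voom. With erastin, 3 of the 5 were lower and 0 higher, against 26.3% of all transcripts lower and 26.6% higher. Among the 96 transcripts at 1000 CPM or more, the 5 included, 44.8% were lower with erastin and 24% higher. From erastin alone to co-treatment 1 of the 5 was higher and 0 lower, against 25.3% of all transcripts higher and 25.9% lower, and 37.5% and 21.9% of the abundant ones. Between the co-treatment and control 3 of the 5 were lower and 0 higher, against 9.21% of all transcripts lower (6.89% with scaling on totals alone) and 7.7% higher (9.29%), and against 13.5% and 12.5% of the abundant ones. That background of 1577 lower and 1318 higher moved with single libraries: 659 were lower and 666 higher if co-treated replicate 2 was dropped, and 867 and 798 if control replicate 2 was. The lower ones also became 848 or 686 on dropping co-treated replicate 1 or 3, 915 on dropping control replicate 3 and 983 with no filter on low counts. By their CPM alone, 4 of the 5 did not overlap between erastin and control (61.5% of all transcripts tested), 1 of the 5 between the treatments (62.9%) and 3 of the 5 between co-treatment and control (38.4%).

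The median log2 fold change of the 5 was -0.34 with erastin, -0.19 between the treatments and -0.81 for the co-treatment against control. Over all transcripts tested these medians were 0.02, -0.02 and -0.03, and over the other 91 abundant transcripts -0.19, 0.04 and -0.03. The 3 comparisons share libraries and are not independent of each other.

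Of the 5, ENSRNOT00000043693 had the largest fall against control with both treatments. It stood at 5739, 7120 and 5727 CPM in control replicates 1, 2 and 3, at 2500, 2857 and 3394 CPM in the erastin libraries and at 2511, 2823 and 2983 CPM in the co-treated ones. The highest treated library was thus well below the lowest control. With erastin it fell to 0.474 of control, a log2 fold change of -1.08 (95% interval -1.41 to -0.76; edgeR adjusted p 0.00049), and the co-treated cells were at 0.429 of control (log2 -1.22, interval -1.54 to -0.89; edgeR adjusted p 0.0017). Between the treatments the log2 difference was -0.14 and was not called (interval -0.47 to 0.20; edgeR adjusted p 0.46).

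ENSRNOT00000049683 followed the same course with a wider spread. Its control libraries held 6018, 7880 and 6010 CPM, its erastin libraries 2835, 3783 and 4512 CPM and its co-treated libraries 2961, 3278 and 3628 CPM. Both treated groups lay below the controls without overlap, and they overlapped each other. It fell with erastin to 0.564 of control (log2 -0.83, interval -1.27 to -0.42; edgeR adjusted p 0.0073) and was at 0.475 of control under co-treatment (log2 -1.07, interval -1.50 to -0.64; edgeR adjusted p 0.0094). The treatments differed by -0.25 on the log2 scale, which was not called (interval -0.66 to 0.21; edgeR adjusted p 0.33). The calls of these 2 transcripts against control, with either treatment, were kept in all 19 alternative fits. The pattern they share, lower with both treatments and not called between them, was that of 443 transcripts, 2.59% of those tested.

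ENSRNOT00000046108 was lower than control only under co-treatment by the test. It was at 6780, 8799 and 6936 CPM in controls, at 4528, 6007 and 7095 CPM with erastin and at 4057, 4519 and 4793 CPM under co-treatment. The erastin libraries spread over the whole range between the other groups and overlapped both. Its log2 fold change was -0.34 with erastin (interval -0.77 to 0.05; edgeR adjusted p 0.16), -0.47 from erastin to co-treatment (interval -0.86 to -0.04; edgeR adjusted p 0.063) and -0.81 from control to co-treatment (0.570 of control, interval -1.22 to -0.40; edgeR adjusted p 0.022). The last call was lost when control replicate 2 was left out (edgeR adjusted p 0.072) and without co-treated replicate 1, 2 or 3 (0.085, 0.074 and 0.061), with log2 fold changes between -0.84 and -0.68. Lower than control under co-treatment, with no call in the other comparisons, held for 0.514% of all transcripts tested. The difference between the treatments, in turn, was called with DESeq2 (adjusted p 0.031), with the stricter filter (edgeR adjusted p 0.039) and without erastin replicate 1 (edgeR adjusted p 0.012).

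ENSRNOT00000047550 was lower than control with erastin and near the control level under co-treatment. Its levels were 4094, 4759 and 4248 CPM in controls, 3028, 3409 and 3817 CPM with erastin and 4322, 4431 and 4594 CPM under co-treatment. The erastin libraries lay below all others, and the co-treated ones lay within the range of the controls. The fall was to 0.789 of control (log2 -0.34, interval -0.58 to -0.12; edgeR adjusted p 0.028), and the co-treated level was 1.24-fold above erastin (log2 0.31, interval 0.08 to 0.55; edgeR adjusted p 0.044). Against control the co-treatment gave a log2 difference of -0.03 (interval -0.26 to 0.20; edgeR adjusted p 0.88), whose sign turned with the scaling. The course of a fall with erastin, a rise under co-treatment and no call against control was that of 16% of all tested transcripts.

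Both calls of ENSRNOT00000047550 were close to the threshold. The fall with erastin was lost without control replicate 2, erastin replicate 1 or erastin replicate 2 (edgeR adjusted p 0.090, 0.093 and 0.074), with only the 6 libraries compared (0.060) and with library totals and scaling taken without the 5 transcripts (0.058). The rise under co-treatment was lost without erastin replicate 1 or 2 (edgeR adjusted p 0.097 and 0.105), without co-treated replicate 1, 2 or 3 (0.057, 0.099 and 0.099) and with scaling without the 5 (0.060). The log2 difference stayed between -0.43 and -0.23 in the first comparison and between 0.23 and 0.43 in the second over the 19 alternatives.

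ENSRNOT00000050156 had the highest count of any transcript in each of the 9 libraries. It was at 11054, 12353 and 11823 CPM in controls, at 12754, 15186 and 16176 CPM with erastin and at 12097, 13900 and 14678 CPM under co-treatment. All erastin libraries were above all controls, and the co-treated libraries overlapped both groups. The log2 fold change with erastin was 0.34 (1.26-fold) and missed the threshold in edgeR's test (adjusted p 0.055), while it passed in 8 of the 19 alternatives, among them DESeq2 (adjusted p 0.023) and limma-voom (adjusted p 0.043; interval 0.06 to 0.60). Between the treatments it was -0.19 (interval -0.45 to 0.08; edgeR adjusted p 0.26) and for the co-treatment against control 0.15 (interval -0.13 to 0.41; edgeR adjusted p 0.49). It was thus called in none of the 3 comparisons by edgeR's test, as were 36.2% of the transcripts tested.

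**Figure D2:**
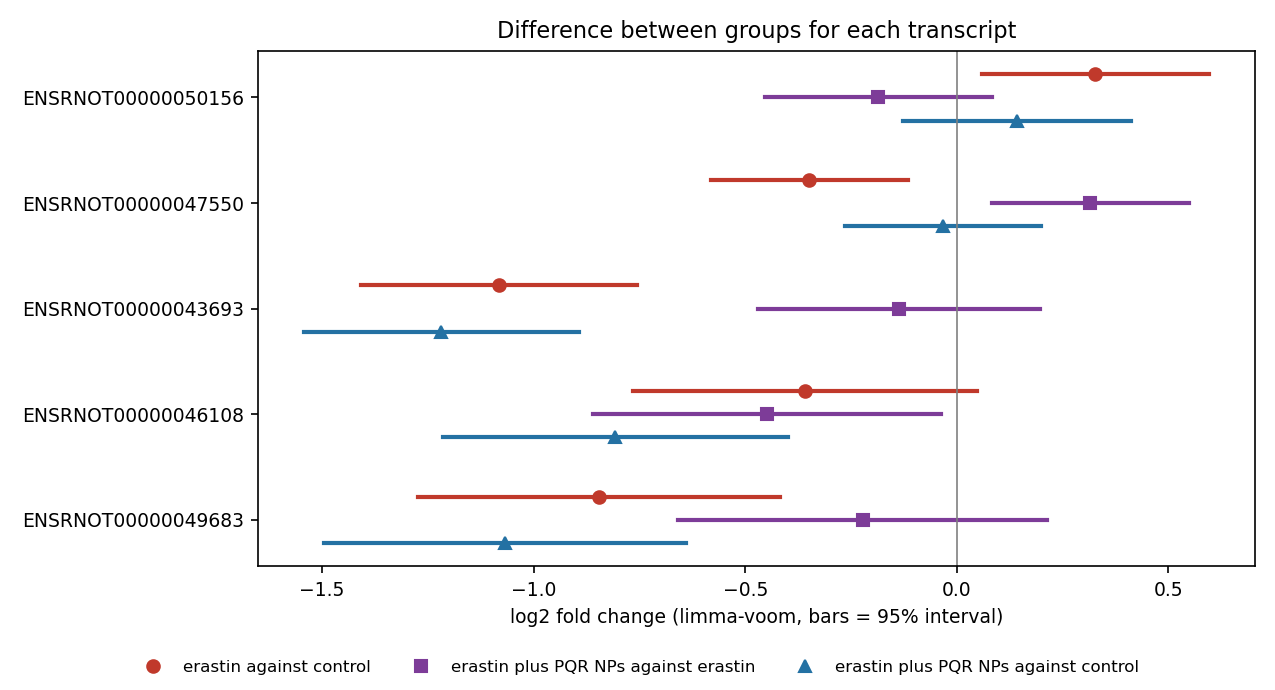
Log2 fold change of each transcript in the 3 comparisons (symbols) with its 95% interval (bars), from limma-voom on 9 libraries; the vertical line marks no difference. Against control, the intervals of ENSRNOT00000043693 and ENSRNOT00000049683 lie below 0 with both treatments, and between the treatments only those of ENSRNOT00000047550, above 0, and ENSRNOT00000046108, below 0, do not include it; the latter had an adjusted p of 0.065 in limma-voom.

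The division of counts among the 5 does not depend on how libraries are scaled. ENSRNOT00000050156 held 32.3% ± 1.96 of the counts of the 5 in control libraries, 48.2% ± 1.79 in erastin libraries and 47.5% ± 0.759 in co-treated ones (SD, n = 3). ENSRNOT00000043693 went from 17.0% ± 0.463 to 9.53% ± 0.336 and 9.72% ± 0.0386, and ENSRNOT00000049683 from 18.1% ± 1.01 to 12.0% ± 0.923 and 11.5% ± 0.268 (SD, n = 3). For these 3 transcripts the shares of both treated groups did not overlap control and overlapped each other. By CPM, 61.5% of all transcripts tested did not overlap between erastin and control, and 38.4% between co-treatment and control.

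The shares of the remaining 2 did not overlap between the treatments. By CPM, 62.9% of all transcripts tested did not overlap there, while ENSRNOT00000046108 did overlap. No such background was computed for shares. ENSRNOT00000047550 held 12.0% ± 0.324 of the counts of the 5 of control cells, 11.2% ± 0.517 of erastin cells and 15.6% ± 0.890 of co-treated cells (SD, n = 3). ENSRNOT00000046108 held 20.5% ± 0.848, 19.1% ± 1.32 and 15.6% ± 0.0128 (SD, n = 3). In both cases control and erastin overlapped, and the co-treated libraries lay outside both. Shares of one sum are tied to each other, so a gain of 1 member is a loss of the others.

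**Figure D3:**
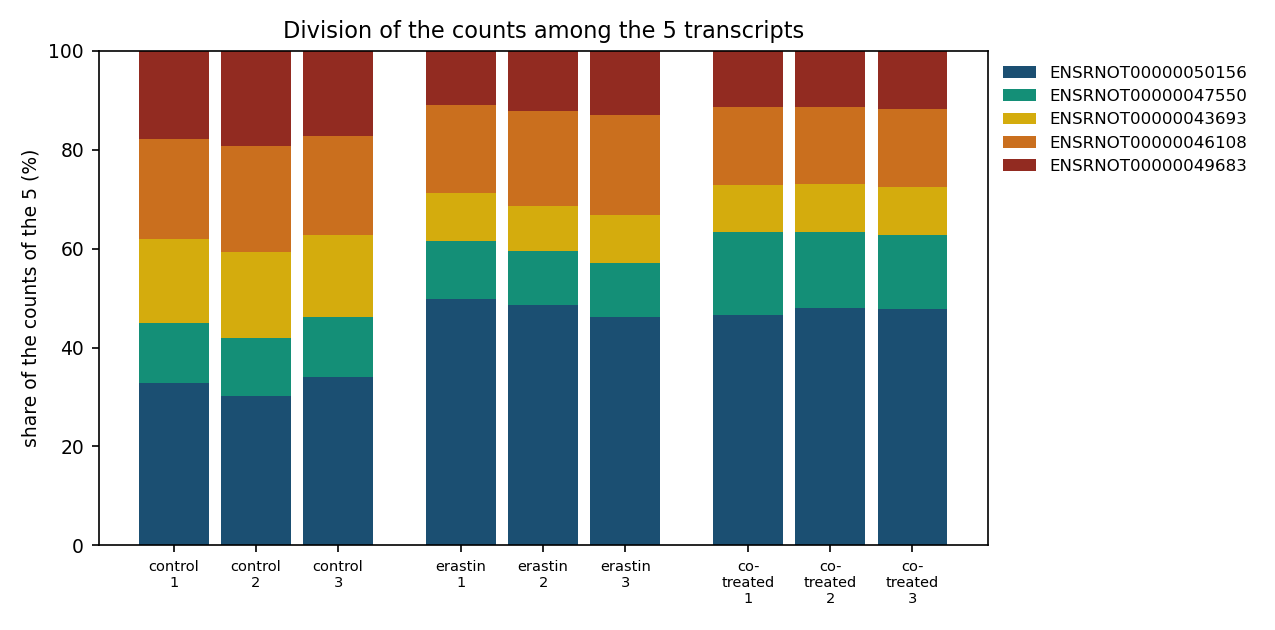
Share of the summed counts of the 5 transcripts held by each of them (percent, stacked to 100) in each of the 9 libraries. The share of ENSRNOT00000050156 is 30.2% to 34.0% in controls and 46.2% to 49.7% in all treated libraries, and the share of ENSRNOT00000046108 is between 15.61% and 15.64% in the 3 co-treated libraries.

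Ratios between 2 members are free of that tie, though the 10 ratios share members and are not independent of each other. Of the 10 pairs, the log2 ratio of counts did not overlap between erastin and control in 9, between the treatments in 7 and between co-treatment and control in 10. For all 4560 pairs among the 96 abundant transcripts, 70.2%, 74.5% and 56% did not overlap. Each ratio that did not overlap had p = 0.1 in a two-sided exact permutation test (0.115 adjusted over 30 tests). With 3 libraries in each group no smaller p is possible, so no ratio could pass 0.05.

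The widest shift was in the ratio of ENSRNOT00000050156 to ENSRNOT00000043693, which was 0.93 ± 0.126 on the log2 scale for control, 2.34 ± 0.0796 for erastin and 2.29 ± 0.0177 for the co-treatment (SD, n = 3). The treatments did not separate here (exact permutation p 0.4). The ratio of ENSRNOT00000047550 to ENSRNOT00000046108 behaved in the opposite way, at -0.77 ± 0.0982 for control, -0.76 ± 0.163 for erastin and 0.00060 ± 0.0802 for the co-treatment (SD, n = 3). Its difference between erastin and control was 0.01 (exact permutation p 1), and that between co-treatment and erastin was 0.76 (exact permutation p 0.1).

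The ratio of ENSRNOT00000046108 to ENSRNOT00000049683 had the smallest pooled SD within groups of the 10 pairs, though in the co-treated group alone other pairs varied less. It was 0.18 ± 0.0246 for control, 0.67 ± 0.0114 for erastin and 0.44 ± 0.0331 for the co-treatment (SD, n = 3), so that the 3 groups stood apart with co-treatment in between. Its pooled SD within groups was 0.0247 on the log2 scale, and only 4 of the 4560 pairs of abundant transcripts had a smaller one (median over pairs 0.174). This pair was picked as the least variable of the 10. For the other pairs among the 5, between 278 and 1489 of the 4560 had a smaller pooled SD. The levels of ENSRNOT00000046108 and ENSRNOT00000049683 had pooled SDs of 0.235 and 0.249.

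Within groups the 5 deviated largely together, though not in every library. All 5 transcripts were at their highest in control replicate 2, erastin replicate 3 and co-treated replicate 3 of the respective groups, and all 5 were at their lowest in erastin replicate 1 and co-treated replicate 1. The same 3 libraries were highest for 3.32% of all tested transcripts and for 21.9% of the 96 abundant ones, the 5 included in both. No such share was computed for the lowest libraries. In controls, 3 of the 5 were lowest in replicate 1 and 2 in replicate 3. The sign of the deviation differed between members in control replicate 3, erastin replicate 2 and co-treated replicate 2. ENSRNOT00000049683 deviated most, by 0.31 on the log2 scale above its group mean in erastin replicate 3 and by -0.36 in erastin replicate 1, while ENSRNOT00000050156 deviated by 0.14 and -0.20 there. Replicate numbers have no order, and the TMM factors moved opposite to these deviations in the treated groups, at 0.997, 0.983 and 0.966 in erastin replicates 1 to 3 and 1.06, 1.02 and 1.01 in the co-treated ones. The levels here are CPM of library totals, so the factors do not enter these deviations. What caused the spread was not tested.

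**Figure D4:**
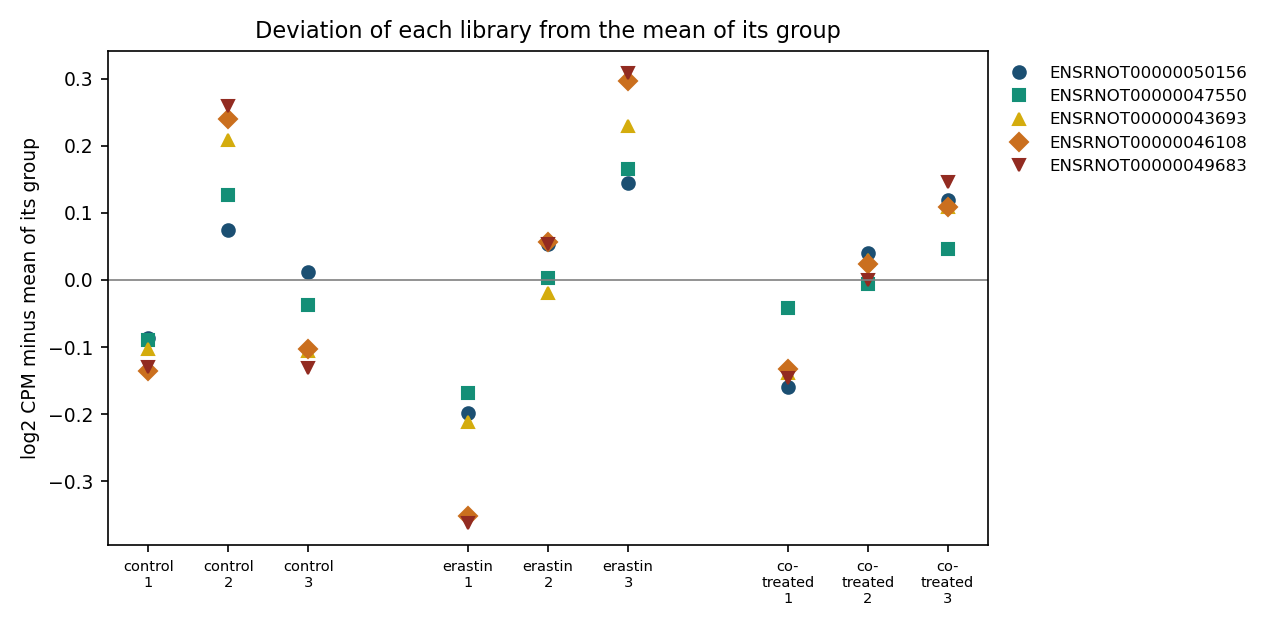
Deviation of the log2 CPM of each transcript from the mean of its own group, in each of the 9 libraries (symbols mark transcripts; the line marks the group mean). All 5 lie above the line in control replicate 2, erastin replicate 3 and co-treated replicate 3, and all 5 below it in replicate 1 of every group.

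The transcripts whose course over the libraries was most like that of the 5 summed were ENSRNOT00000067854 and ENSRNOT00000002037, by the root mean square difference of centred log2 CPM over 9 libraries (0.0998 and 0.105) among 2124 transcripts at 100 CPM or more with counts in every library. ENSRNOT00000067854 was at 305 ± 30.0 CPM for control, 274 ± 18.1 for erastin and 234 ± 13.1 for the co-treatment (SD, n = 3), and ENSRNOT00000002037 at 432 ± 25.5, 347 ± 23.3 and 345 ± 2.49 CPM. The measure picks transcripts whose changes are about as large as those of the sum. In edgeR's test both were lower under co-treatment than in control (log2 -0.44, adjusted p 0.019, and log2 -0.38, adjusted p 0.012). With erastin only ENSRNOT00000002037 was called (log2 -0.30, adjusted p 0.0092), and between the treatments only ENSRNOT00000067854 (log2 -0.30, adjusted p 0.032). These calls follow in part from how the 2 were picked. By mean level they ranked 615 and 405.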

How the data were processed

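Values are the raw counts the authors deposited, whole numbers for each Ensembl transcript (rows) in each library (columns). The submitters' processing notes name HISAT2 2.2.1 and the build Rnor 6.0. Not given in the sources used here: the counting program, the annotation release, the use of strand and how reads that match several places, such as nuclear copies of mitochondrial sequence, were handled. Libraries were made from RNA bound to oligo(dT) beads, per the labels' protocols, so a change in poly(A) tails and a change in amount would look alike. Columns were assigned to libraries by their titles.

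The tests used edgeR 4.0.16 (R 4.3.3) on all 9 libraries, with the intervals from limma 3.58.1; DESeq2 1.42.0 was an alternative. Other alternatives changed the scaling, the filter, the libraries in the fit and the replicate block. Permutation tests used scipy 1.17.1. The code of the fit was run on simulated counts with the same spread for every transcript and few changed ones. Those settings differ from these data, so the run does not bear on the calls here. The 5 transcripts, the rule for the 2 most alike in course and the alternatives were chosen with earlier results of these data known. Lists of respiratory chain genes and of PC12 markers could not be matched to the transcript IDs and were not tested.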

Additional observations from a re-analysis of the deposited data

How the results depend on the processing

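Each comparison was refitted under 19 alternatives, 9 of which left out 1 library, which also lowers the residual degrees of freedom. The number of the 5 transcripts called was 3 with erastin (2 to 4 over the alternatives) and 3 for co-treatment against control (2 to 3). Between the treatments it was 1, and it became 0 with scaling without the 5, 2 with the stricter filter, with DESeq2 and with the replicate block, and 0 to 1 without single libraries, for 0 without erastin replicate 2 or co-treated replicate 1, 2 or 3. The count of all transcripts called for co-treatment against control, 2895, ran from 1325 to 2988 without single libraries. Signs turned for 2 differences that were not called. For ENSRNOT00000047550 under co-treatment against control, the log2 value of -0.03 became 0.0084 with upper quartile scaling, 0.027 on total counts, 0.014 with no filter, 0.0029 with only the 6 libraries compared, and, without single libraries, ran from -0.078 to 0.035 (turned without control replicate 2, 0.035, and co-treated replicate 1, 0.024). For ENSRNOT00000043693 between the treatments, -0.14 ran from -0.24 to 0.013 without single libraries (turned without erastin replicate 3). The causes were not tested. The summed share of counts moved by less than 1 SD with either other denominator. Deviations of same-numbered libraries correlated at -0.013 to 0.111, and of others at -0.108 to 0.076. The largest positive values were between same-numbered libraries, control 1 and erastin 1 (0.111) and erastin 1 and co-treated 1 (0.094). The most negative, -0.108, was between control 1 and erastin 2. These small correlations do not settle whether libraries were paired by replicate number. With the number as a block, ENSRNOT00000050156 with erastin (adjusted p 0.033) and ENSRNOT00000046108 between the treatments (adjusted p 0.043) were called by edgeR, and 8884, 8541 and 2723 transcripts were called in all. Whether depth or the number of libraries limited the calls was not tested.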
